A study of Mus musculus with 9 samples.

Results

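The genes described here are 41 genes of the amino acid response in mouse myeloid cells: 21 genes listed as targets or partners of the transcription factor ATF4 (stress regulators, serine and one-carbon enzymes, amino acid transporters) and 20 genes of cytosolic aminoacyl-tRNA synthetases. They were chosen by symbol, not by measured values, out of 24421 symbols in the count table. Of the 41, 40 were found under their own symbol and Mars1 under its RefSeq synonym Mars, and all 41 passed the filter on low counts that left 13270 genes to test. Bulk RNA sequencing was done on lineage-depleted bone marrow cells. They had been grown for 5 days with interleukin 3, interleukin 6 and stem cell factor, a culture for blast-like myeloid cells. Markers of mature neutrophils, mast cells and megakaryocytes were detected as well (values below). Wild-type (WT) C57BL/6 cells received vehicle (3 libraries). Tet2-/-Flt3ITD cells on the C57BL/6 background received vehicle (3 libraries) or SHP099 (3 libraries), with 24 h of treatment. Their genotype label names the loss of Tet2, which encodes a DNA demethylase, and the internal tandem duplication of Flt3, a receptor kinase. SHP099 blocks the phosphatase SHP2 (gene Ptpn11) at an allosteric site. The mutant libraries came from 3 cultures, each from 1 mouse. The sources used here give neither the SHP099 dose nor the age of the mice. WT cells with SHP099 are not analysed here, and the cultures are cytokine-expanded marrow, not leukaemia cells taken from an animal.

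When a cell runs short of an amino acid, uncharged tRNA activates the kinase GCN2 (gene Eif2ak4). GCN2 phosphorylates the initiation factor eIF2alpha, most translation slows, and ATF4 is translated more; other kinases reach the same step from endoplasmic reticulum stress, viral RNA or low heme. ATF4 then switches on genes for amino acid synthesis and import, for tRNA synthetases and for stress regulators such as CHOP (gene Ddit3). Because ATF4 is controlled largely through translation, the level of its mRNA does not by itself show its activity. The synthetases join each amino acid to its tRNA; several of them sit in a large multisynthetase complex, and growing blood cells need them for protein synthesis with or without stress.

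The DNA element through which ATF4 acts with C/EBP partners has the core TGATGNAA, shown here because genes of both sets hold it in their promoters. In RefSeq promoters on GRCm38.p6, which run from 250 bases before to 50 bases after each start, an exact match on either strand was present for 8 of 19 genes of the ATF4 set that have an entry (42.1%) and for 5 of 13 synthetase genes (38.5%), against 4.51% of 27025 genes. The stricter letters TGATGCAA were present for 5 of 19 and 4 of 13 genes, against 1.03% of all genes. The ATF4 set was chosen as listed targets or partners of ATF4, and 12 of the synthetases are often listed as targets. High shares of this element could thus be foreseen and are no separate result. The E-box CACGTG was present for 2 of 19 and 4 of 13 genes, against 8.09%. A TGATGCAA match is also a TGATGNAA match, and no E-box match overlapped one of these. Slc7a5, Slc7a3, Cars, Hars, Lars, Nars, Rars, Vars and Wars have no entry in the promoter table. Capitals mark the matched letters in the stretches that follow, which read 5′ to 3′ on the gene's strand and give both members whose levels moved furthest with SHP099 (Slc7a11, Nupr1), classical stress targets (Chac1, Asns, Trib3) and synthetases (Iars, Yars, Tars, Aars).
Slc7a11 (chr3:50443647-50443704, minus strand): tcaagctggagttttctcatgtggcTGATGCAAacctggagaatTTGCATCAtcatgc
Nupr1 (chr7:126625548-126625605, minus strand): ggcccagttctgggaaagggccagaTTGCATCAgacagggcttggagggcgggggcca
Chac1 (chr2:119351024-119351081, plus strand): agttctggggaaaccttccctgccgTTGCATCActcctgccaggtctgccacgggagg
Asns (chr6:7693210-7693257, minus strand): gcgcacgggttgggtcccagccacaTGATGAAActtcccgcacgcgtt
Trib3 (chr2:152344028-152344057, minus strand): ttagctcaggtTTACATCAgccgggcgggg
Iars (chr13:49682126-49682155, plus strand): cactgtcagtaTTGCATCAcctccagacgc
Yars (chr4:129189895-129189924, plus strand): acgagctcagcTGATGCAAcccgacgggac
Tars (chr15:11399659-11399698, minus strand): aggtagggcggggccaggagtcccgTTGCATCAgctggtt
Aars (chr8:111033705-111033762, plus strand): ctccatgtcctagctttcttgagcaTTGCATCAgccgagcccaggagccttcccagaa

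**Figure D1:**
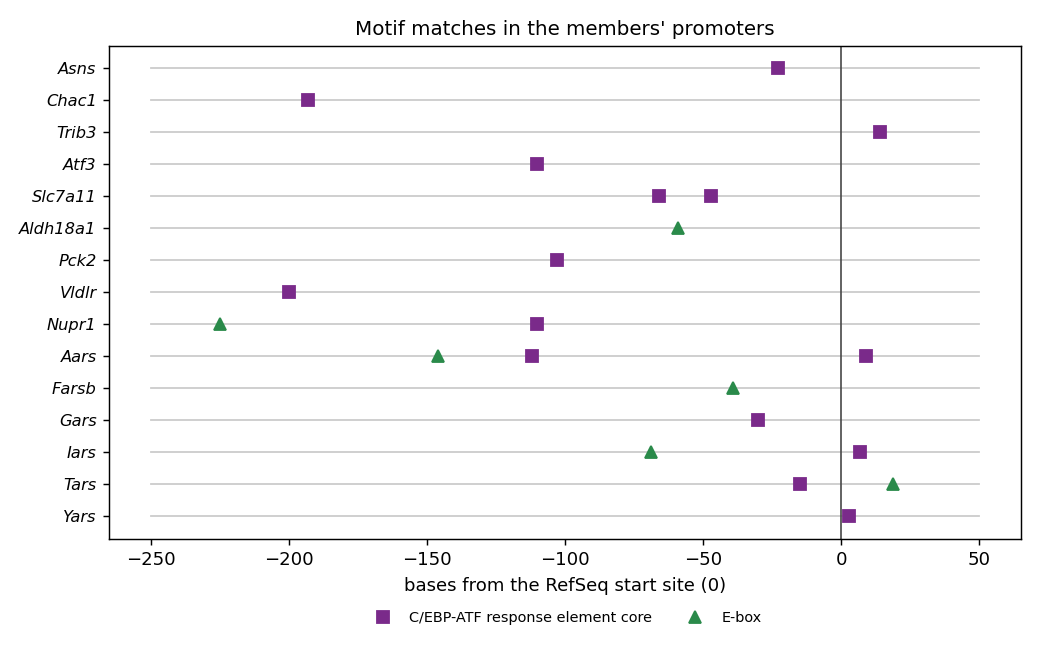
Exact matches of the C/EBP-ATF response element core (TGATGNAA, squares) and the E-box (CACGTG, triangles) in the RefSeq promoters of the members that hold either, by distance in bases from the start site. Slc7a11 has 2 response element cores, at 66 and 47 bases before the start, and Nupr1, Iars, Tars and Aars hold both kinds of motif.

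The libraries held 27242168 to 40681117 counts in WT, 30982845 to 41567622 in mutant vehicle and 41053983 to 45810089 in SHP099-treated cells. SHP099 replicate 3 stood apart from the other treated libraries (chi-square per degree of freedom 111 and 114, against 10.9 to 25.5 for all other replicate pairs), and counts without it are given with the results. Levels are given as CPM, counts scaled to the TMM-adjusted library size. Tet2 was at 31.8 to 34.8 CPM in WT, 14.7 to 17 CPM in vehicle-treated mutant and 10.9 to 13.2 CPM in SHP099-treated libraries, lower in the mutant as the label has it. All 8 blast-like myeloid markers were detected (summed level 13600 to 21800 CPM over the 9 libraries), and 5 lymphoid markers summed to at most 0.514 CPM. Mature neutrophil markers summed to 24000 to 30500 CPM in WT, 17600 to 18600 CPM in vehicle-treated mutant and 25400 to 30400 CPM in SHP099-treated libraries (9 of 9 genes detected). Mast cell and basophil markers (7 of 7 detected) summed to 1850 to 2030, 941 to 1350 and 1410 to 1840 CPM, and megakaryocyte and erythroid markers to 1700 to 2140, 826 to 1040 and 1030 to 1240 CPM, with the globin genes Hba-a1 and Hbb-bt at 0 in all libraries. The ranges of these mature cell sums were thus lowest in the mutant vehicle libraries, where most synthetases were highest. The megakaryocyte and erythroid range overlapped that with SHP099. Single markers can differ from a sum: in vehicle-treated mutant against WT cells 6 of 9 neutrophil markers fell and 1 rose, against 14.7% and 16.9% of all genes. The part of these markers in the results was not tested. In bulk libraries fewer cells of a type and less RNA per cell cannot be told apart.

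Per kilobase of transcript (longest coding transcript), the synthetases lay within a narrow band and the ATF4 set did not. In WT cells the mean level of synthetases ran from 32.2 CPM per kb for Cars, the cysteinyl-tRNA synthetase, to 142 CPM per kb for Gars, the glycyl-tRNA synthetase. In the ATF4 set it ran from 0.613 CPM per kb for Slc7a3, a cationic amino acid transporter, to 328 CPM per kb for Atf4 itself. Shmt2 (140 CPM per kb), Slc3a2 (137), Slc7a5 (135) and Psat1 (113) followed Atf4. The stress regulators Chac1 (8.12), Nupr1 (8.07), Trib3 (7.31) and Atf3 (3.68) and the cystine transporter gene Slc7a11 (2.35 CPM per kb) were low.

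**Figure D2:**
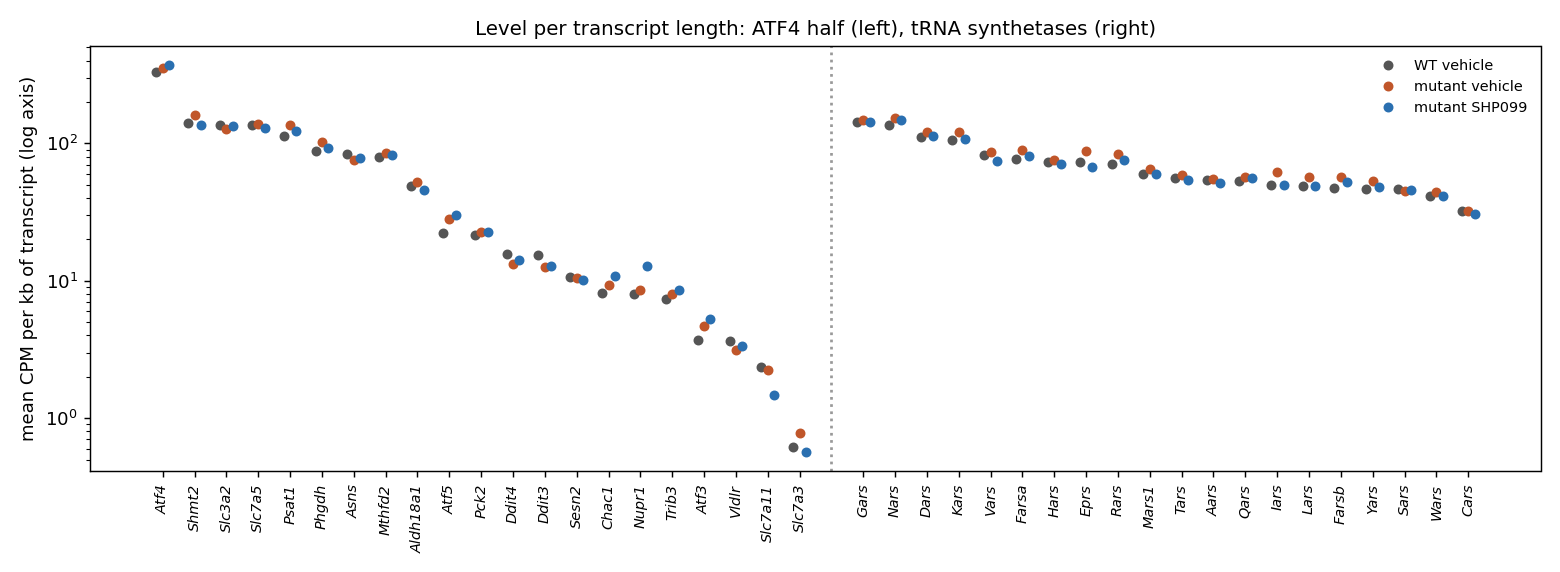
Mean level of each member in CPM per kilobase of transcript (log axis) in WT vehicle, mutant vehicle and mutant SHP099 cells (3 libraries each), ordered by the WT level within each set. The ATF4 set spans from 0.613 to 328 CPM per kb in WT cells and the synthetases from 32.2 to 142.

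The comparison of SHP099 with vehicle in mutant cells asks what the inhibitor changes. With SHP099 8 of 20 synthetase genes fell and none rose, while in the ATF4 set 4 of 21 fell (Slc7a11, Shmt2, Aldh18a1, Phgdh) and 1 rose (Nupr1). By the same edgeR quasi-likelihood test 13% of the 13270 genes fell and 8.81% rose. The changes were small. The median log2 fold change was -0.12 over the synthetases (range -0.38 to 0.03), 0.02 over the ATF4 set (range -0.61 to 0.57) and 0 over all genes. The mutant libraries with a common number deviated together and were taken as pairs from 1 culture each. Within these pairs 17 synthetases were lower with SHP099 in all 3 pairs and 1, Sars, was higher in all 3, against 31.4% and 32.2% of all genes. In the ATF4 set 9 were lower and 9 higher in all 3 pairs. With the pair as a block 12 synthetases fell and none rose, and in the ATF4 set 6 fell and 2 rose, against 21.3% and 21.5% of all genes. Without mutant vehicle replicate 1 or 2, or without any one SHP099 replicate, 5 synthetases fell. In these runs 1094 to 1322 of 13344 to 13421 genes tested fell, against 1721 of 13270 with all libraries. Without SHP099 replicate 3, 3 genes of the ATF4 set fell and 0 rose, and Nupr1 had a log2 fold change of 0.56. Of all 13352 genes tested in that run, 1094 fell and 673 rose, against 1169 that rose with all libraries.

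Transcript length moved with direction in this comparison. Genes were put in 5 bands of near equal size by transcript length. Among genes of 5001 nucleotides or more 31.2% fell, and among those of 1695 or fewer 3.75% did. The bands from 1696 to 2577, 2578 to 3554 and 3555 to 5000 nucleotides hold 7, 6 and 6 synthetases. In these bands 5.81%, 9.47% and 15.1% of all genes fell, and 2, 1 and 5 of the synthetases did. With a smooth trend on length and GC content removed from each library, 11 of the 20 synthetases fell and none rose, and in the ATF4 set 5 fell and none rose, against 9.04% and 7.56% of all genes.

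Vehicle-treated mutant cells were also set against WT, which gives the state that SHP099 acts on. Here 8 synthetases rose and none fell, with a median of 0.11 (range -0.04 to 0.30). In the ATF4 set 4 rose (Phgdh, Shmt2, Psat1, Atf5) and 3 fell (Ddit3, Asns, Ddit4), with a median of 0.10 (range -0.31 to 0.35). Of all genes 16.9% rose and 14.7% fell, with a median of 0.02. Both of these comparisons use the same mutant vehicle libraries, so a gene that happened to be high in those libraries would appear raised in one and lowered in the other. The comparison of SHP099-treated mutant with WT vehicle cells shares 1 group with each and does not use the group mean of those libraries. They still enter its filter, scaling and estimate of the spread, which come from all 9 libraries. In that comparison 1 synthetase fell (Vars) and none rose, with a median of 0.00 (range -0.14 to 0.15). In the ATF4 set 5 rose (Atf5, Nupr1, Chac1, Atf4, Trib3) and 3 fell (Slc7a11, Ddit3, Aldh18a1). Of all genes 15.4% rose and 16.3% fell.

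**Figure D3:**
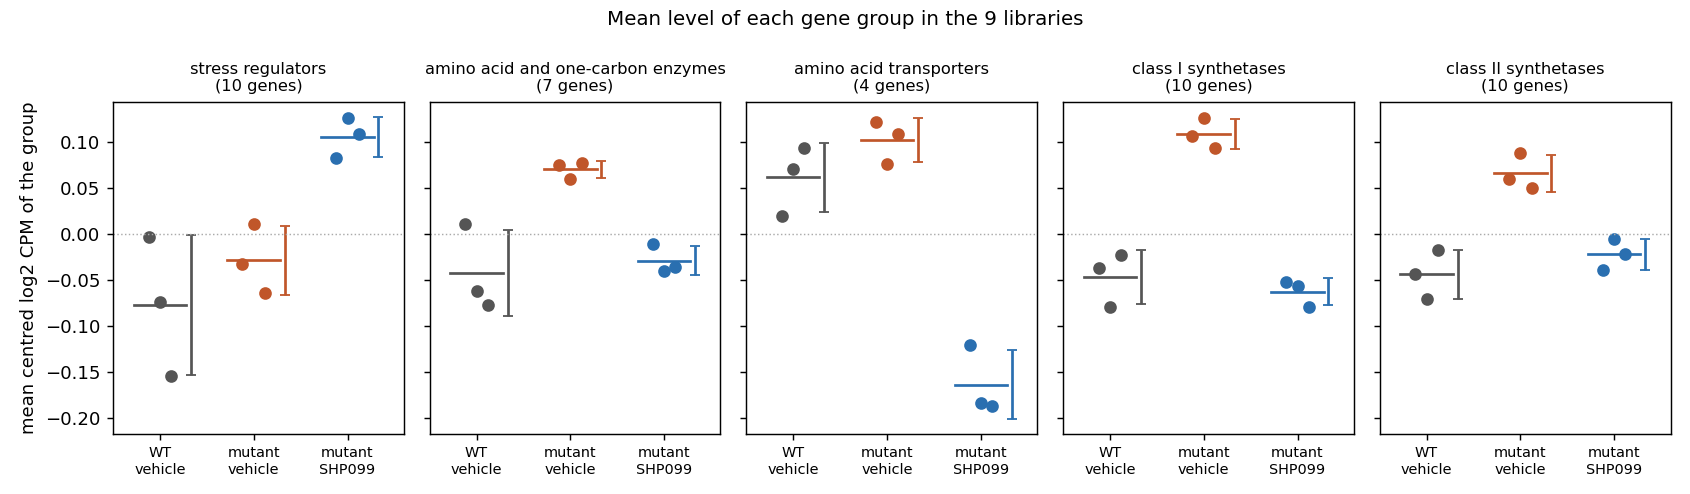
Mean over each gene group of log2 CPM minus each gene's mean over the 9 libraries; points are libraries, lines group means and bars SD (n = 3). Class I and class II synthetases and the amino acid and one-carbon enzymes lie higher in the 3 mutant vehicle libraries than in the others, transporters are lowest with SHP099, and stress regulators are highest with SHP099. These levels were not corrected for transcript length.

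**Figure D4:**
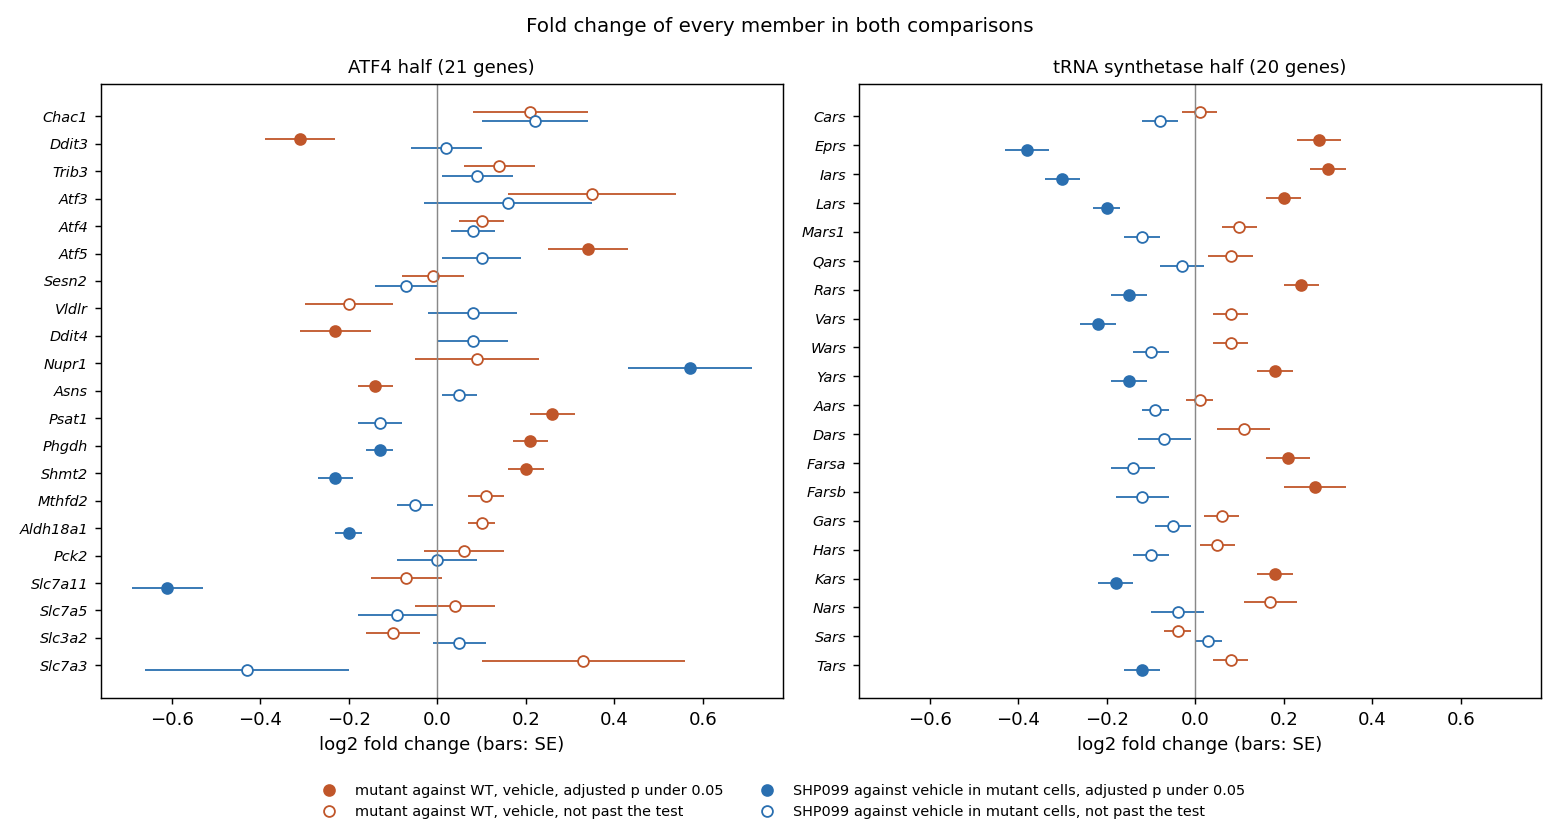
Log2 fold change (point) with its standard error (bar) for each member, mutant against WT vehicle in orange and SHP099 against vehicle in blue; filled points passed an edgeR adjusted p of 0.05. The synthetases lie to the right for genotype and to the left for SHP099, except Sars at -0.04 and 0.03.

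Among the transcription factors, Atf4 (chromosome 15, 80255184 to 80257541, GRCm38) was the most abundant gene of its set per kilobase. Its level was 587, 555 and 558 CPM in WT replicates 1 to 3, 585, 603 and 627 CPM in vehicle-treated mutant and 650, 610 and 655 CPM in SHP099-treated libraries. The SHP099 and vehicle libraries overlapped, and neither the SHP099 comparison (log2 fold change 0.08 ± 0.05, SE; edgeR adjusted p = 0.26) nor the genotype comparison (0.10 ± 0.05; edgeR adjusted p = 0.14) passed. SHP099-treated mutant cells lay above WT in every library (0.17 ± 0.05; edgeR adjusted p = 0.018), a call lost without WT replicate 2 or 3 or SHP099 replicate 1 or 3 (edgeR adjusted p = 0.055 to 0.10). Atf5, a related stress factor, was at 41.6, 40.9 and 38.6 CPM in WT, 54.7, 45.2 and 53.6 CPM in vehicle-treated mutant and 59.2, 48.8 and 56 CPM in SHP099-treated libraries. All 6 mutant libraries stood above WT for Atf5. It rose by genotype (0.34 ± 0.09; edgeR adjusted p = 0.015) and in treated mutant against WT cells (0.44 ± 0.09; edgeR adjusted p = 0.0053), but did not pass for SHP099 against vehicle (0.10 ± 0.09; edgeR adjusted p = 0.46). The genotype call for Atf5 was lost without WT replicate 3 or mutant vehicle replicate 1 or 3 (edgeR adjusted p = 0.05 to 0.068). Atf3, an immediate stress factor, stayed at 6.08 to 12.4 CPM over all libraries and passed in no comparison.

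Ddit3 encodes CHOP, a pro-apoptotic partner of C/EBP factors that ATF4 induces. Its level was 13.3, 13.8 and 14.4 CPM in WT, 12.1, 11.3 and 10.1 CPM in vehicle-treated mutant and 11, 11.2 and 11.8 CPM in SHP099-treated libraries. Every mutant library was below every WT library, with or without SHP099. Ddit3 fell by genotype (log2 fold change -0.31 ± 0.08, SE; edgeR adjusted p = 0.016) and did not pass for SHP099 (0.02 ± 0.08; edgeR adjusted p = 0.89). In treated mutant against WT cells it fell as well (-0.29 ± 0.08; edgeR adjusted p = 0.021), a call lost without WT replicate 2 or 3 or SHP099 replicate 1 or 2 (edgeR adjusted p = 0.055 to 0.066). With the length and GC trend removed the genotype call was lost (-0.24; edgeR adjusted p = 0.054). Trib3, a pseudokinase gene that CHOP and ATF4 induce, was at 15.1, 15.6 and 13.7 CPM in WT, 15.5, 17.6 and 15.6 CPM in vehicle-treated mutant and 17.5, 18 and 16.4 CPM in SHP099-treated libraries. The mutant groups overlapped, and neither comparison with mutant vehicle cells passed (0.09 ± 0.08 for SHP099 and 0.14 ± 0.08 for genotype). Trib3 passed for treated mutant against WT cells (0.23 ± 0.08; edgeR adjusted p = 0.046), but not without any WT or SHP099 replicate or mutant vehicle replicate 3 (edgeR adjusted p = 0.056 to 0.15).

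Chac1, which encodes a glutathione-degrading enzyme and is among the most inducible ATF4 targets, was at 14.7, 14.6 and 10.6 CPM in WT, 16, 13.6 and 16.4 CPM in vehicle-treated mutant and 19.1, 16.9 and 17.6 CPM in SHP099-treated libraries. The SHP099 libraries lay above all others. The change with SHP099 did not pass (log2 fold change 0.22 ± 0.12, SE; edgeR adjusted p = 0.23) but did with the pair as a block (0.23 ± 0.07; edgeR adjusted p = 0.0063). Against WT, treated mutant cells were higher (0.43 ± 0.13; edgeR adjusted p = 0.027), a call lost without WT replicate 3 (0.28; edgeR adjusted p = 0.059) or SHP099 replicate 1 or 3 (edgeR adjusted p = 0.083 and 0.068). Nupr1, a small stress-induced chromatin protein gene, was at 8.52, 5.86 and 5.7 CPM in WT, 7.14, 7.32 and 6.84 CPM in vehicle-treated mutant and 11.1, 9.83 and 10.7 CPM in SHP099-treated libraries. Again the SHP099 libraries were the highest. Nupr1 was the sole member called higher with SHP099 (0.57 ± 0.14, 1.48-fold; edgeR adjusted p = 0.018), and it also rose against WT (0.66 ± 0.14; edgeR adjusted p = 0.0078). The first call did not pass without mutant vehicle replicate 1 or 3 or SHP099 replicate 1 or 3 (edgeR adjusted p = 0.052 to 0.054) and with the length and GC trend removed, and held with the pair as a block (edgeR adjusted p = 2.2e-06).

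Of the other stress genes, Ddit4, which encodes the mTORC1 inhibitor REDD1, was at 24.4, 30.1 and 27.8 CPM for WT and 22.3, 24 and 23.7 CPM in vehicle-treated mutant libraries. It fell by genotype (log2 fold change -0.23 ± 0.08, SE; edgeR adjusted p = 0.048), a call lost without WT replicate 2 or 3, any mutant vehicle replicate or SHP099 replicate 3 (edgeR adjusted p = 0.052 to 0.13). Sesn2, a leucine-binding inhibitor of mTORC1 signalling, and Vldlr, a lipoprotein receptor gene, passed in no comparison. Their log2 fold changes with SHP099 were -0.07 ± 0.07 and 0.08 ± 0.10. With the pair as a block and the length and GC correction together Vldlr rose with SHP099 (0.26; edgeR adjusted p = 0.0011). Over the 10 stress regulators the median with SHP099 was 0.09, with 1 higher and none lower, against 8.81% and 13% of all genes. Apart from Sesn2 and Vldlr, their transcripts are short, from 829 (Nupr1) to 2026 nucleotides (Trib3). All genes of 1695 nucleotides or fewer had a median of 0.11, and those of 1696 to 2577 had 0.05. With the length and GC trend removed no stress regulator passed. Values then ran from -0.12 for Ddit3 to 0.42 for Nupr1, with Atf4 at 0.00.

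Of the 7 enzymes of amino acid and one-carbon metabolism, 3 fell with SHP099 (median -0.13), and by genotype 3 rose and 1 fell (median 0.11). Over all genes, 13% fell with SHP099, and 16.9% rose and 14.7% fell by genotype. Shmt2, the mitochondrial serine hydroxymethyltransferase gene (chromosome 10, 127517123 to 127522444, GRCm38), was at 314, 321 and 325 CPM in WT, 368, 358 and 374 CPM in vehicle-treated mutant and 311, 307 and 318 CPM in SHP099-treated libraries. The mutant vehicle libraries stood above both other groups without overlap. Shmt2 rose by genotype (log2 fold change 0.20 ± 0.04, SE; edgeR adjusted p = 0.0033), fell with SHP099 (-0.23 ± 0.04; edgeR adjusted p = 0.002) and did not pass in treated mutant against WT cells (-0.04 ± 0.04; edgeR adjusted p = 0.45). Phgdh, the first enzyme of serine synthesis, was at 172, 165 and 162 CPM in WT, 193, 196 and 189 CPM in vehicle-treated mutant and 177, 177 and 174 CPM in SHP099-treated libraries. Its 3 groups did not overlap. It rose by genotype (0.21 ± 0.04; edgeR adjusted p = 0.0022) and fell with SHP099 (-0.13 ± 0.03; edgeR adjusted p = 0.025). The SHP099 call for Phgdh was lost without WT replicate 2 or any mutant replicate (edgeR adjusted p = 0.056 to 0.10) and held with the pair as a block (edgeR adjusted p = 0.0054). Psat1, the next enzyme of that pathway, was at 303, 294 and 287 CPM, 328, 361 and 367 CPM, and 315, 326 and 323 CPM in the same order of groups. Psat1 rose by genotype (0.26 ± 0.05; edgeR adjusted p = 0.0036). With SHP099 it did not pass (-0.13 ± 0.05; edgeR adjusted p = 0.074), and it did with the pair as a block (edgeR adjusted p = 0.01) or the length and GC trend removed (edgeR adjusted p = 0.028). Mthfd2, the mitochondrial folate enzyme, did not pass in any comparison (0.11 ± 0.04 for genotype and -0.05 ± 0.04 for SHP099). With block and length and GC correction together Mthfd2 fell with SHP099 (-0.11; edgeR adjusted p = 0.007).

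Aldh18a1 encodes the enzyme that starts proline synthesis from glutamate. It was at 175, 169 and 171 CPM in WT, 186, 183 and 182 CPM in vehicle-treated mutant and 165, 158 and 157 CPM in SHP099-treated libraries, so that the SHP099 libraries were the lowest. It fell with SHP099 (log2 fold change -0.20 ± 0.03, SE; edgeR adjusted p = 0.0033) and did not pass by genotype (0.10 ± 0.03; edgeR adjusted p = 0.051). The call against WT (-0.10 ± 0.03; edgeR adjusted p = 0.042) was lost without any WT replicate, mutant vehicle replicate 2 or 3, or SHP099 replicate 2 or 3 (edgeR adjusted p = 0.051 to 0.11). Asns, asparagine synthetase, went the other way from Phgdh and Shmt2. It was at 174, 162 and 168 CPM in WT, 153, 156 and 147 CPM in vehicle-treated mutant and 159, 162 and 150 CPM in SHP099-treated libraries. The mutant groups overlapped, and mutant vehicle lay below WT. Asns fell by genotype (-0.14 ± 0.04; edgeR adjusted p = 0.034), a call lost without WT replicate 1 or mutant vehicle replicate 1 or 3 (edgeR adjusted p = 0.062 to 0.11), and did not pass with SHP099 (0.05 ± 0.04; edgeR adjusted p = 0.49). Pck2, mitochondrial phosphoenolpyruvate carboxykinase, passed in no comparison (0.00 ± 0.09 with SHP099).

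The largest decrease of any member with SHP099 was in Slc7a11, the light chain of the cystine-glutamate exchanger, whose promoter holds the pair of response element cores printed above. Slc7a11 (chromosome 3, 49892526 to 50443614, GRCm38) was at 20.3, 20.7 and 23.9 CPM in WT, 20.1, 21.1 and 20.7 CPM in vehicle-treated mutant and 13.4, 14.6 and 12.7 CPM in SHP099-treated libraries. WT and mutant vehicle libraries overlapped and every SHP099 library was below them. It fell 1.52-fold with SHP099 (log2 fold change -0.61 ± 0.08, SE; edgeR adjusted p = 0.001) and fell against WT (-0.68 ± 0.08; edgeR adjusted p = 0.00055), but did not pass by genotype (-0.07 ± 0.08; edgeR adjusted p = 0.53). Slc7a11 has a transcript of 9223 nucleotides, in the band of longest transcripts, and with the length and GC trend removed its log2 fold change with SHP099 was -0.37 ± 0.08 (SE; edgeR adjusted p = 0.018). The call held in all 17 alternatives. Its heavy chain partner Slc3a2, which also pairs with the leucine transporter Slc7a5, ran from 339 to 397 CPM over all libraries, and neither Slc3a2 nor Slc7a5 passed in any comparison (0.05 ± 0.06 and -0.09 ± 0.09 with SHP099). Slc7a3 was at 1.31 to 2.78 CPM and did not pass for SHP099 (-0.43 ± 0.23; edgeR adjusted p = 0.2) but did with the pair as a block (-0.44 ± 0.16; edgeR adjusted p = 0.023).

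Of the synthetases in the multisynthetase complex, 5 of 8 were higher by genotype and 5 of 8 lower with SHP099, with medians of 0.19 and -0.16, against 16.9% of all genes higher and 13% lower in these comparisons. Iars, the isoleucyl-tRNA synthetase gene (chromosome 13, 49682100 to 49734267, GRCm38), was at 223, 210 and 230 CPM in WT, 271, 279 and 266 CPM in vehicle-treated mutant and 219, 225 and 217 CPM in SHP099-treated libraries. The mutant vehicle libraries stood above the rest and the other groups overlapped. Iars rose by genotype (log2 fold change 0.30 ± 0.04, SE; edgeR adjusted p = 0.0011) and fell with SHP099 (-0.30 ± 0.04; edgeR adjusted p = 0.0012), and both calls held in all 17 alternatives. Eprs, the fused glutamyl- and prolyl-tRNA synthetase, was at 359, 338 and 371 CPM in WT, 451, 426 and 416 CPM in vehicle-treated mutant and 329, 344 and 324 CPM in SHP099-treated libraries. Again the mutant vehicle libraries were the highest and the other groups overlapped. Eprs rose by genotype (0.28 ± 0.05; edgeR adjusted p = 0.003) and had the largest decrease of the synthetases with SHP099 (-0.38 ± 0.05, 1.3-fold; edgeR adjusted p = 0.00096).

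Lars, Kars and Rars, the leucyl-, lysyl- and arginyl-tRNA synthetase genes of the same complex, followed that pattern. Lars was at 197, 191 and 199 CPM in WT, 226, 226 and 222 CPM in vehicle-treated mutant and 199, 198 and 190 CPM in SHP099-treated libraries. Its log2 fold changes were 0.20 ± 0.04 by genotype and -0.20 ± 0.03 with SHP099 (SE; edgeR adjusted p = 0.0028 and 0.0038). Kars was at 234, 221 and 243 CPM, 263, 265 and 264 CPM, and 236, 232 and 234 CPM in the same order. In Lars and Kars alike the mutant vehicle libraries were the highest, and treated cells overlapped WT. Kars changed by 0.18 ± 0.04 and -0.18 ± 0.04 (edgeR adjusted p = 0.0073 and 0.012). Rars was at 151, 145 and 154 CPM, 179, 183 and 168 CPM, and 156, 164 and 158 CPM, so that its treated libraries also lay just above WT. It rose by genotype (0.24 ± 0.04; edgeR adjusted p = 0.0035) and fell with SHP099 (-0.15 ± 0.04; edgeR adjusted p = 0.037), the latter call being lost without WT replicate 2 or 3, mutant vehicle replicate 1 or 2 or any SHP099 replicate (edgeR adjusted p = 0.056 to 0.14). With the pair as a block and all libraries the SHP099 call of Rars held (edgeR adjusted p = 0.0027). The remaining complex members Dars, Mars1 and Qars did not pass in either comparison, and Mars1 fell with the pair as a block (-0.12 ± 0.04; edgeR adjusted p = 0.018). Mars1 also fell with SHP099 once the length and GC trend was removed (-0.14; edgeR adjusted p = 0.023). Dars fell with block and length and GC correction together (-0.10; edgeR adjusted p = 0.011). Of the complex's scaffold genes, Eef1e1 rose by genotype (0.29 ± 0.06) and fell with SHP099 (-0.28 ± 0.06), Aimp1 rose by genotype (0.16 ± 0.05), and Aimp2 was not called in these comparisons.

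Outside the complex, Vars, the valyl-tRNA synthetase gene, was at 327, 344 and 347 CPM in WT, 362, 358 and 356 CPM in vehicle-treated mutant and 313, 307 and 304 CPM in SHP099-treated libraries. Its treated libraries all lay below WT, and it was the one synthetase that passed against WT (log2 fold change -0.14 ± 0.04, SE; edgeR adjusted p = 0.016). That call was lost without WT replicate 2 (edgeR adjusted p = 0.054), and with the length and GC trend removed the value was 0.01 (edgeR adjusted p = 0.78). Vars fell with SHP099 (-0.22 ± 0.04; edgeR adjusted p = 0.0029; -0.14 with that trend removed, edgeR adjusted p = 0.024) and did not pass by genotype (0.08 ± 0.04; edgeR adjusted p = 0.12). Yars, the tyrosyl-tRNA synthetase gene, was at 138, 134 and 138 CPM, 162, 155 and 148 CPM, and 140, 138 and 140 CPM in the order WT, mutant vehicle and SHP099. Its mutant vehicle libraries were the highest. Yars rose by genotype (0.18 ± 0.04; edgeR adjusted p = 0.0069) and fell with SHP099 (-0.15 ± 0.04; edgeR adjusted p = 0.022), a call that did not pass once mutant vehicle replicate 1 or 2 or any SHP099 replicate was left out (edgeR adjusted p = 0.063 to 0.092). Tars, for threonine, was at 233 to 239 CPM in vehicle-treated mutant and 212 to 221 CPM in SHP099-treated libraries (-0.12 ± 0.04; edgeR adjusted p = 0.04), and lost its call in 12 of 17 alternatives, among them each of 8 in which 1 library was left out (edgeR adjusted p = 0.064 to 0.19). The runs with 1 library left out used no block. With the pair as a block the SHP099 calls of Tars and Yars held (edgeR adjusted p = 0.012 and 0.0028).

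Farsa and Farsb, the subunits of phenylalanyl-tRNA synthetase, rose together by genotype (log2 fold change 0.21 ± 0.05 and 0.27 ± 0.07, SE; edgeR adjusted p = 0.0079 and 0.012). Farsa ranged over 136 to 142 CPM for WT and 159 to 167 CPM for mutant vehicle libraries, and Farsb at 90.2 to 99.8 and 108 to 121 CPM. The Farsb call was lost without WT replicate 2 or mutant vehicle replicate 2 (edgeR adjusted p = 0.06 and 0.053). With SHP099 neither passed in the main test. Both did with the pair as a block (-0.14 ± 0.04 and -0.12 ± 0.04; edgeR adjusted p = 0.0041 and 0.012), as did Hars, for histidine (-0.10 ± 0.04; edgeR adjusted p = 0.037). With the length and GC trend removed and no block, Farsa (-0.19, edgeR adjusted p = 0.011) and Hars (-0.17, edgeR adjusted p = 0.033) fell and Farsb did not pass. Aars, Cars, Gars, Nars, Sars and Wars passed in no comparison, nor for SHP099 with the pair as a block. With the length and GC correction alone Wars fell with SHP099 (edgeR adjusted p = 0.033). With block and length and GC correction together Cars, Gars and Wars fell with SHP099 (edgeR adjusted p = 0.027, 0.022 and 0.0056). Without either, the log2 fold changes of these 6 genes with SHP099 ran from -0.10 for Wars to 0.03 for Sars. Sars, the seryl-tRNA synthetase gene, was at 163 to 169 CPM in WT, 159 to 161 CPM in vehicle-treated mutant and 162 to 166 CPM in SHP099-treated libraries. Its values went in the opposite direction from those of the other synthetases in both comparisons, without passing the test.

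**Figure D5:**
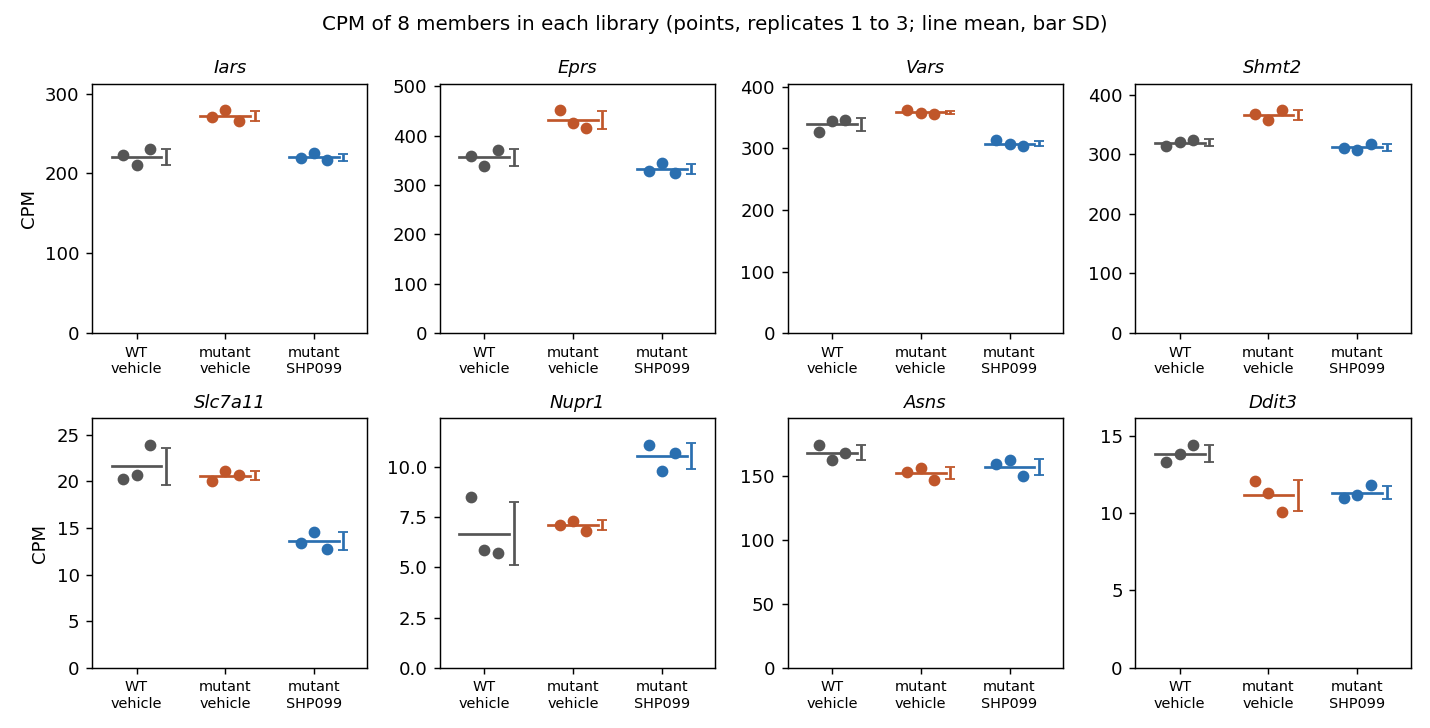
CPM of 8 members in each library; points are replicates 1 to 3, lines means and bars SD (n = 3), with the axis from 0. Iars, Eprs, Vars and Shmt2 are highest in mutant vehicle cells, Slc7a11 is lowest and Nupr1 highest with SHP099, and Asns and Ddit3 are highest in WT cells.

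A split of the synthetases by enzyme class or by whether they are often listed as ATF4 targets gave the following counts. For comparison, 13% of all genes fell with SHP099 and 16.9% rose by genotype. Of 10 class I genes 6 fell with SHP099 (median -0.15) and 5 rose by genotype (median 0.14), and of 10 class II genes 2 fell (median -0.10) and 3 rose (median 0.09). Eprs, whose fused prolyl part belongs to class II, was counted as class I alone and was called in both comparisons. Farsa and Farsb, subunits of the same enzyme, were counted separately in class II. Of 12 synthetases often listed as ATF4 targets 5 fell with SHP099 (median -0.11) and 4 rose by genotype (median 0.09). Of the other 8, 3 fell (median -0.13) and 4 rose (median 0.15). No difference between these subsets was tested. The members that hold a response element core did not share a direction with SHP099. Slc7a11, Iars, Yars and Tars fell, Nupr1 rose, and the others, among them Asns and Gars, did not pass. Of all genes 13% fell and 8.81% rose with SHP099.

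For the lists that follow, the shares over all genes were 16.9% higher and 14.7% lower by genotype, and 8.81% higher and 13% lower with SHP099. Values of these lists carry no correction for transcript length, and among all genes of 5001 nucleotides or more 31.2% fell with SHP099. The 17 mitochondrial synthetases, which are separate genes in nearly every case, had 7 higher and none lower by genotype (median 0.11). With SHP099, 5 were lower and 1 higher (median -0.10). Vars2 (-0.32 ± 0.06, SE) and Sars2 (-0.22 ± 0.06) fell, Fars2 rose (0.23 ± 0.05), and by genotype Rars2 (0.25 ± 0.05) and Wars2 (0.33 ± 0.09) rose. Lars2, named after its values were seen, was at 581, 788 and 730 CPM with vehicle and 983, 895 and 3230 CPM with SHP099. The value of SHP099 replicate 3 stood far above the rest, and the difference did not pass (log2 fold change 1.28 ± 0.41, SE; edgeR adjusted p = 0.052).

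Among 14 genes of eIF2alpha control, 6 rose and 1 fell by genotype and 5 fell with SHP099 (medians 0.15 and -0.10). Gcn1, listed in the table as Gcn1l1 and needed for GCN2 activation, went from 167 ± 6.06 CPM (SD, n = 3) with vehicle to 115 ± 4.94 CPM with SHP099 (log2 fold change -0.54 ± 0.06, SE; edgeR adjusted p = 0.00059). Eif2b3, a subunit of the exchange factor for eIF2, rose by genotype (0.44 ± 0.05) and fell with SHP099 (-0.26 ± 0.05). So did Eif2s1, which encodes eIF2alpha itself (0.24 ± 0.04 and -0.13 ± 0.04), and the RNA-activated kinase gene Eif2ak2 (0.16 ± 0.05 and -0.24 ± 0.05). Ppp1r15a, which encodes the stress-induced phosphatase subunit GADD34, fell by genotype (-0.46 ± 0.07; edgeR adjusted p = 0.0013), and stood at 33 ± 0.409 CPM in treated cells against 47 ± 1.68 CPM in WT.

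Of 24 further genes reported as ATF4 targets 23 were tested, and 8 rose and 2 fell by genotype, while 1 rose and 6 fell with SHP099 (medians 0.13 and -0.11). The cationic amino acid transporter gene Slc7a1 rose from 177 ± 3.22 CPM (SD, n = 3) in WT to 215 ± 4.54 CPM in vehicle-treated mutant cells and fell to 165 ± 6.46 CPM with SHP099. The one-carbon gene Mthfd1l (-0.29 ± 0.04, log2 fold change and SE) and the glutamine transporter gene Slc1a5 (-0.27 ± 0.04) fell with SHP099. By genotype the glycine transporter gene Slc6a9 fell (-0.81 ± 0.11) and Cth, an enzyme of cysteine synthesis, rose (0.57 ± 0.09). Of 12 targets of the IRE1 and ATF6 arms of the unfolded protein response, 3 rose and 1 fell by genotype and 1 rose and 1 fell with SHP099. That is 25% higher and 8.33% lower by genotype and 8.33% each way with SHP099, near the shares over all genes for SHP099. Hyou1, a chaperone gene, rose (0.23 ± 0.06) and fell (-0.28 ± 0.06), and Xbp1 rose with SHP099 (0.25 ± 0.06). By genotype the chaperone gene Hsp90b1 rose (0.22 ± 0.07) and Edem1, a gene of protein disposal, fell (-0.15 ± 0.04). Of 10 genes of amino acid sensing to mTORC1, 2 rose and 2 fell by genotype and 3 rose and 2 fell with SHP099, with Mtor at 0.19 ± 0.03 and -0.37 ± 0.03. The arginine sensor gene Castor1, listed as Gatsl3, fell by genotype (-0.85 ± 0.15), as did Nprl2 (-0.32 ± 0.08). With SHP099 Lamtor1 rose (0.24 ± 0.04) and Rptor fell (-0.22 ± 0.04). In treated mutant against WT cells these lists had 2 higher and 2 lower (mitochondrial synthetases), 1 and 2 (eIF2alpha control), 2 and 4 (further ATF4 targets), 1 and 0 (IRE1 and ATF6 targets) and 2 and 2 (amino acid sensing). The shares over all genes in that comparison were 15.4% higher and 16.3% lower.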

How the data were processed

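Raw counts per gene symbol for 9 libraries were used as deposited by the authors. Per the submitters' processing notes the build was mm10 and the tools were STAR, featureCounts, Subread and FastQC, with no role given; the sources used here give no versions, annotation release or strand setting. Per the labels' protocols, the library kit was a stranded one for mRNA. The column taken as SHP099 replicate 3 ends in another character than the sample's title. All columns were mapped.

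The count analysis ran in R 4.3.3 (edgeR 4.0.16, limma 3.58.1): filterByExpr by group (minimum count 10; 13270 of 24421 genes kept), TMM scaling, and 1 quasi-likelihood fit of the 3 group means to all 9 libraries (biological coefficient of variation 9.04%). Two-sided p-values got the Benjamini-Hochberg adjustment across the 13270 genes, and 0.05 was the threshold. The size of the log2 fold change over the root of F gave its standard error. For group levels a prior count of 2 was added before the log2. Nothing in the labels says that the WT cultures came from separate mice, so p-values cover only the spread among the samples at hand, which may be technical. Replicates differed beyond sampling noise (chi-square per degree of freedom 10.9 to 114). Replicate numbers come from the titles. For deviations from the group means, r over genes was 0.54, 0.6 and 0.56 between mutant vehicle and SHP099 libraries with a common number and -0.36 to -0.23 between the rest. The libraries were therefore taken as pairs, which the series text assigns to cultures from individual mice.

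The members and lists were chosen with earlier results of these data known. Values in every library are given for Atf4, Asns, Chac1, Ddit3 and Trib3 and for up to 6 called members with the smallest p per set in the SHP099 and genotype comparisons; other lists are given by counts, with up to 3 called members of smallest p named for each of these comparisons, except 1 that is not reported here. Lists of stromal and other cell type markers were used for the check of the cells alone; stromal markers summed to 11.3 to 34.6 CPM. Positions and transcript lengths are from GENCODE M21 on GRCm38 (23376 symbols with a length), and promoters from RefSeq on GRCm38.p6. Exons of Ddit3 and Mars1 share 68 bases on opposite strands, those of Hars and Hars2 195 and those of Farsb and Sgpp2 248. Atf5 shares 82 exon bases with Il4i1 and 82 with Nup62, also on opposite strands. Exons of Aars and Exosc6 share 1326 bases on the same strand. Counts of these genes are therefore uncertain, and Ddit3 also has 2 GENCODE entries.

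Alternatives were DESeq2 size factors in edgeR, DESeq2 1.42.0, dropping the filter, a filter of 1 CPM in 3 libraries, the 2 compared groups alone, the replicate block, a lowess correction (span 0.3) for length and GC content, block and correction together, and each library left out. The scripts were tested on simulated data for the SHP099 comparison (13173 genes, 3 draws, 200 genes changed): recovery was 63.9% at a log2 change of 0.5 and 83.4% at 1, and 6.63% of the calls were false.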

Additional observations from a re-analysis of the deposited data

How the results depend on the processing

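With SHP099, Slc7a11, Shmt2, Aldh18a1, Eprs, Iars, Lars and Vars passed in all 17 alternatives, and by genotype Iars, Phgdh and Farsa did. Kars with SHP099 lay at the threshold without SHP099 replicate 2 (edgeR adjusted p = 0.05). No synthetase was called higher with SHP099 or lower by genotype in any alternative. Leaving out 1 library gave 5 to 8 synthetases lower and 0 to 1 and 3 to 4 genes of the ATF4 set higher and lower with SHP099; 7 to 11 synthetases higher and 3 to 6 and 1 to 3 of the ATF4 set by genotype; and 0 to 1 synthetases higher, 0 to 1 lower, and 2 to 6 and 1 to 3 of the ATF4 set in treated mutant against WT cells. Of all genes (13328 to 13446 tested), these runs called 673 to 1354 higher and 1090 to 1759 lower with SHP099. By genotype they called 1351 to 1979 higher and 1528 to 2048 lower, and against WT 1080 to 2181 and 1650 to 2222. Medians of log2 fold change then ran from -0.12 to -0.09 (synthetases) and -0.01 to 0.05 (ATF4 set) with SHP099, from 0.08 to 0.13 and 0.04 to 0.15 by genotype, and from -0.01 to 0.01 and -0.04 to 0.01 for treated mutant against WT.

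With the replicate block, 2 genes of the ATF4 set rose with SHP099; by genotype, where a number links no WT with a mutant culture, 1 rose and 0 fell and 3 synthetases rose (median 0.08), and against WT 0 synthetases fell. There r between same-number deviations was -0.13 to -0.07, so the block marks no pairing. With the length and GC correction, 0 of the ATF4 set rose with SHP099, the medians were -0.01 (ATF4 set) and -0.14 (synthetases), the synthetase median by genotype was 0.14, and against WT 0 synthetases fell and the ATF4 set had a median of 0.02. With block and correction together, 3 rose and 7 fell in the ATF4 set and 16 synthetases fell with SHP099 (medians -0.01 and -0.14); by genotype 1 fell in the ATF4 set and 2 synthetases rose (median 0.13); against WT 0 synthetases fell and the ATF4 set had a median of 0.02. Over all genes, the block gave 2791 of 13004 higher with SHP099, 732 higher and 1340 lower of 12992 by genotype, and 1655 of 13104 lower against WT. The correction gave 1003 of 13270 higher with SHP099 and 1782 lower against WT. Block and correction together gave 2825 higher and 2418 lower of 13004 with SHP099, 630 higher and 1222 lower by genotype, and 1223 lower against WT. Vars against WT turned to 0.01 with the correction and 0.02 with block and correction. The causes were not tested.

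The SHP099 median of the ATF4 set was 0.03 with DESeq2 size factors, in DESeq2 and with the 1 CPM filter. DESeq2 called 2 synthetases lower against WT, and 2213 of all 13270 genes. By genotype, the synthetase median was 0.08 with the 1 CPM filter and with the 2 groups alone, where the ATF4 set had 0.07. Without a filter 1 gene of the ATF4 set fell by genotype, as did 1826 of all 18056 genes. Most changes were below 0.3 log2 units, a size at which the simulation did not test recovery.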
